A study of Mus musculus with 6 samples.

Results

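The genes described here encode the glutamate receptors and the proteins that hold them at the postsynaptic membrane, measured in striatum that lacks PGC-1alpha. They were taken as every gene whose symbol begins with Gria, Grik, Grin, Grid or Grm and a number, together with 15 named scaffold and trafficking genes. This gave 37 genes with at least 1 probe set that the array annotation assigns to a single gene, among 18193 such genes on the array. They comprise 22 receptor genes, 14 of the 15 named genes, and Grid2ip, a scaffold of delta receptors whose symbol fits the same pattern. Each gene was read by the probe set with the highest mean signal over all arrays. Shank2, Grin1 and Grm6 had no probe set named for them in the annotation used and were not analysed here.

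The PGC-1alpha null mice (PGC-1a-/-, knockout, KO) were compared with wild-type mice (PGC-1a+/+, WT), both bred from heterozygous parents and described by the submitters as littermates. Each genotype had 3 mice, all female and aged 6 months, with 1 array of striatal RNA per mouse. The null allele is inherited, so every cell of the dissected tissue carries it from conception, and the tissue was profiled in bulk. KO 3 is labelled as cytoplasmic RNA and the other 5 mice as total RNA, while the design text names total RNA throughout, so values without KO 3 are given for the genes whose difference moved most or changed sign. Ppargc1a, the gene for PGC-1alpha, was lower in KO at all 5 of its probe sets, with signals of 89.5, 87.9 and 68.4 in KO mice against 397, 305 and 370.3 in WT mice at the one that changed most.

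Glutamate is the main excitatory transmitter reaching the striatum, from cortical and thalamic axons that contact medium spiny neurons. AMPA and kainate receptors carry fast current, NMDA receptors admit calcium when glutamate coincides with depolarisation, and metabotropic receptors act through G proteins. Behind the membrane, MAGUK proteins such as PSD-95 bind receptor tails, SAPAP proteins link the MAGUKs to SHANK proteins, and Homer proteins join SHANK to group I metabotropic receptors. PGC-1alpha is a coactivator that works through transcription factors such as NRF1 and the estrogen-related receptors. NRF1 is best known for genes of the respiratory chain.

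Because PGC-1alpha acts through these factors, the start regions of the genes were read for their motifs. RefSeq windows from 250 bases before to 50 bases after an annotated start (GRCm38.p6) were held for 26 of the 37 genes. The NRF1 core was searched as CGCANGCGC, where N is any base, on both strands. It was found at Gria2, Dlg4 and Nsf, 3 of the 26 genes or 11.5%, against 7.12% of the 27025 genes with such a window. The motif of the estrogen-related receptors, TNAAGGTCA, was in 0 of the 26 and in 1.43% of all genes. CREB, which is not one of the factors named above, was also searched by its site TGACGTCA. That site was in 0 of the 26 and in 2.03% of all genes. The 3 stretches are shown because they are the ones with a match, which is in capitals, the flanks being in lower case. Gria2 lies on the minus strand at chr3:80802806-80802859, Dlg4 on the plus strand at chr11:70023894-70023962, at 1 of its 3 windows, and Nsf on the minus strand at chr11:103954043-103954111.
Gria2: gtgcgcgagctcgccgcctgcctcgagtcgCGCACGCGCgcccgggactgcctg
Dlg4: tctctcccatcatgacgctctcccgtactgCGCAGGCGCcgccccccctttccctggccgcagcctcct
Nsf: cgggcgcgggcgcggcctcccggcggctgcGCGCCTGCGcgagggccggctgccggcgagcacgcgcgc
The match begins 6 bases after the start at Gria2. It spans 58 to 50 bases before the start at Dlg4 and 25 to 17 bases before it at Nsf, where it reads on the opposite strand. A match of letters is a description of the window and does not show that the factor binds there.

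None of the glutamate receptor and scaffold genes tested was called between KO and WT striatum. A filter on dim probe sets, at a signal of 26.8, left 33 of the 37 genes, and limma called 0 of the 33 at an adjusted p under 0.05, where it called 0.446% of the 12323 named genes tested. At that share, 0 calls among 33 genes say little about these genes. The lowest adjusted p among the 33 was 0.442. At an unadjusted p under 0.05 there were 2 of them, Gria4, lower in KO, and Dlg4, higher in KO, or 6.06% of the genes against 9.73% of all named genes. Arrays of the genotypes were fully separated for 1 gene that was higher in KO, Dlg2, or 3.03% against 6.64% of all named genes. They were fully separated for 1 gene that was lower, Gria4, or 3.03% against 8.48%. In whole striatum, fewer cells of a type and less RNA per cell cannot be told apart.

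Differences were small as well as uncalled. On the log2(signal + 16) scale, 21 of the 33 genes differed by less than 0.1 and 26 by less than 0.2 in either direction. The extremes were -0.24 for Gria4 and 0.36 for Grid2ip. The standard deviation of the differences was 0.14 over these genes and 0.21 over all named genes tested, and the median absolute difference was 0.08 against 0.11. The sign was positive for 24 of the 33 genes, or 72.7% against 48.2% of all named genes, and the median difference was 0.04 against -0.01. Taken array by array, the median deviation from the WT mean was 0.11, 0.05 and 0.00 in the KO mice, against -0.02, 0.04 and 0.00 in the WT mice. These values overlap between the genotypes. The median difference was 0.02 without KO 1, 0.03 without KO 2 and 0.09 without KO 3.

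Leaving out KO 3, the array labelled as cytoplasmic RNA, moved 7 of the 33 genes by more than 0.1 on the log2 scale and changed the sign of 3. Without it 23 genes were above 0 and 10 below, 0 were called and the lowest adjusted p was 0.455. The sign changed for Grin3a (-0.07 without KO 3, 0.10 with it), Dlgap1 (-0.09 against 0.02) and Grik2 (0.00 against -0.07). Gria1 was further from 0 without KO 3, at 0.27 against 0.17, as was Grm4, at 0.18 against 0.03. Homer2 was nearer to 0, at 0.15 against 0.28, and so were Grip1, at -0.11 against -0.22, and Pick1, at -0.05 against -0.17.

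**Figure D1:**
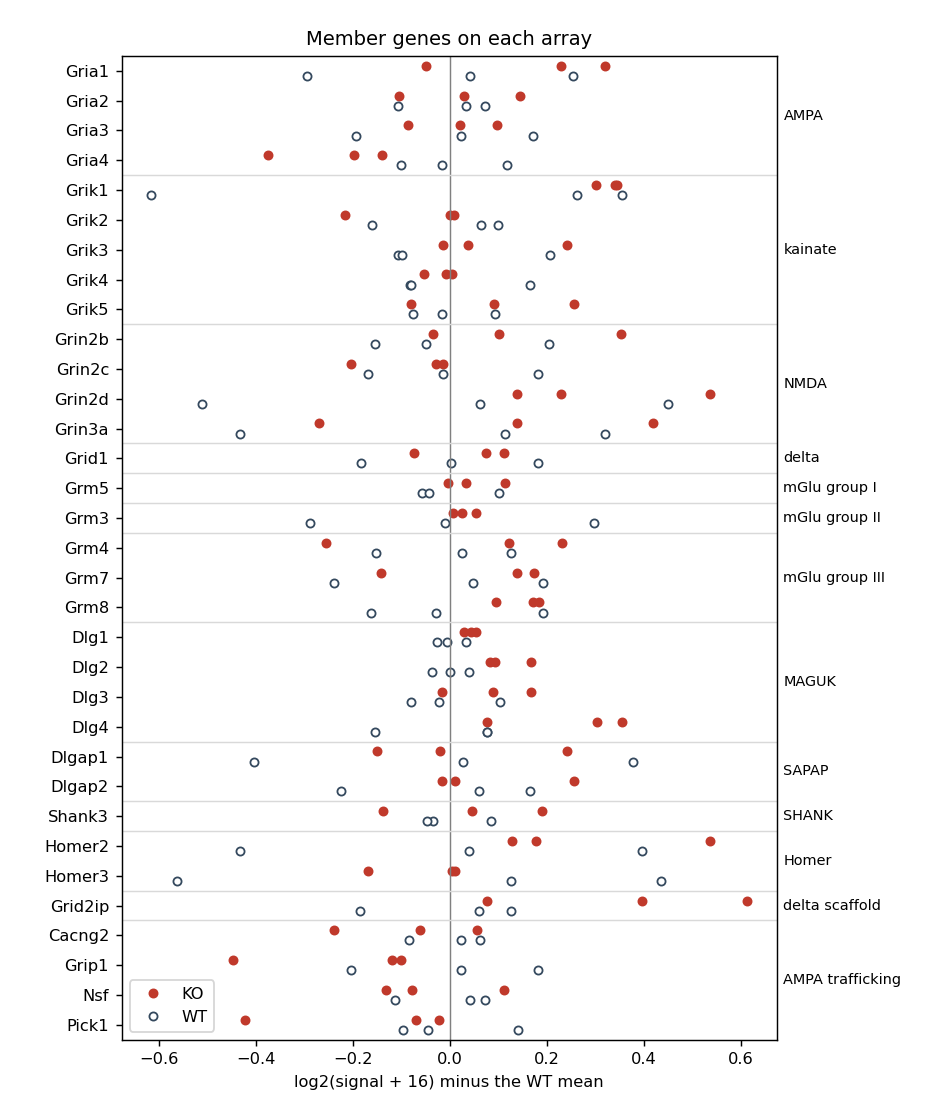
Log2(signal + 16) of the 33 genes tested on each array, minus the mean of the 3 WT arrays of that gene. Filled points are KO mice and open points WT mice, 1 point per array, grouped by the role named at the right. Gria4 and Dlg2 are the genes whose KO and WT points do not overlap.

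Among the 4 AMPA receptor subunits, Gria2 encodes GluA2, the subunit that makes these receptors nearly impermeable to calcium. Its signals were 2794.2, 3027.9 and 2545.4 in KO mice, against 2541, 2880.3 and 2802 in WT mice. The arrays overlap almost completely. The difference was 0.02 (SE 0.08), and its 95% interval ran from -0.15 to 0.20, or a change of -9.85% to 14.6% in signal + 16 in KO. Gria3, for GluA3, differed by 0.01 (interval -0.20 to 0.22).

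Gria1 encodes GluA1, the subunit inserted into synapses during potentiation. It gave 1699.3, 1594.5 and 1313 in KO mice and 1104.3, 1398.6 and 1623.1 in WT mice. The spread within WT was wider than the difference, which was 0.17 (interval -0.11 to 0.45, adjusted p = 0.752). Its second probe set differed by 0.02.

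Gria4 encodes GluA4, a subunit that gives AMPA receptors rapid kinetics. It had signals of 445, 505.3 and 526.3 in KO mice and 575.6, 632.5 and 541.4 in WT mice, so that every KO array lay below every WT array. The difference was -0.24 (SE 0.09, interval -0.44 to -0.03), with an unadjusted p of 0.0258 and an adjusted p of 0.442. An exact permutation test gave p = 0.1, the smallest that 3 mice against 3 allow. Its other probe sets went the other way, at 0.14 and 0.02, and the mean over all 3 was -0.03 (adjusted p = 0.973). The lower signal was seen at the brightest probe set and not at the gene's other ones.

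**Figure D2:**
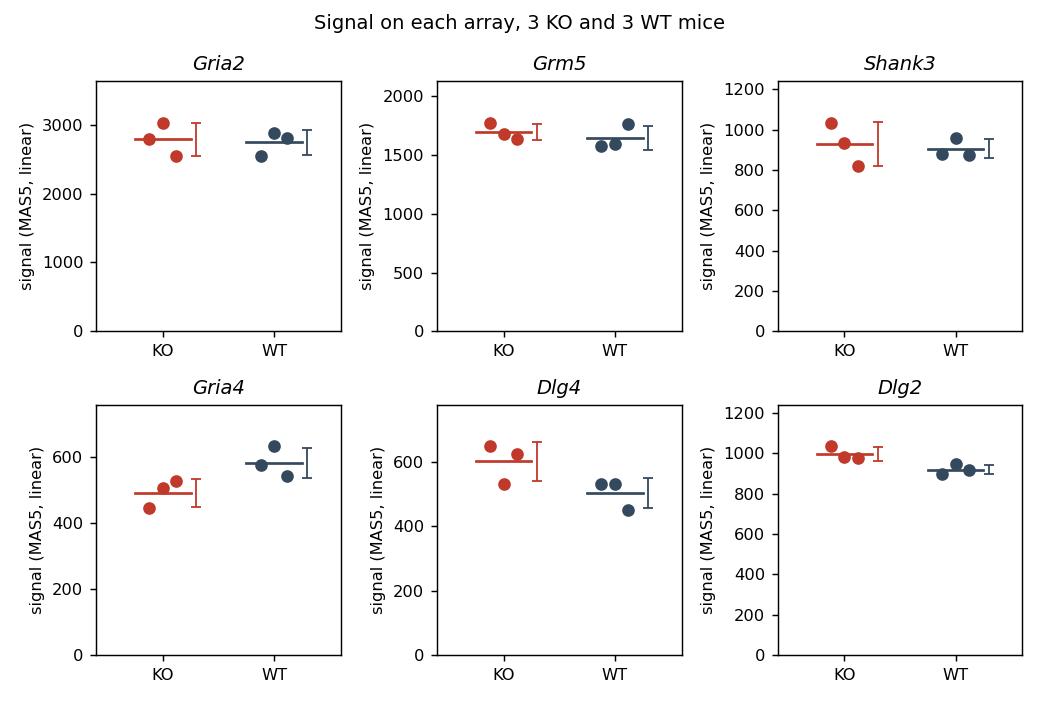
Deposited signal on each array for 6 genes, KO at the left and WT at the right of each panel. Points are arrays, horizontal bars are means of 3 and whiskers are 1 SD. Gria2, Grm5 and Shank3 overlap between genotypes, Gria4 is lower in KO without overlap, Dlg4 is higher in KO with overlap and Dlg2 is higher in KO without overlap.

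The kainate receptor subunits did not differ beyond the spread between mice, with 3 of 5 above 0 and 2 below. Grik5, a subunit with high affinity for kainate, read 467.5, 367.3 and 415.4 in KO mice and 368.1, 416 and 384.5 in WT mice. The difference was 0.09 (interval -0.14 to 0.31). Grik1 had the largest value of the group, 0.33, with an interval of -0.22 to 0.88. Its signals were 43.1, 44.9 and 44.7 in KO mice and 41.5, 15.3 and 45.3 in WT mice, so that WT 2 alone stood low. Grik2, Grik3 and Grik4 differed by -0.07, 0.09 and -0.02, with Grik4 at 0.02 after quantile normalization and 0.03 after centring arrays on their medians.

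Of the NMDA receptor genes, Grin2b encodes GluN2B, a glutamate-binding subunit abundant in forebrain. Its signals were 600.7, 455.1 and 502.3 in KO mice, against 450.9, 540.3 and 417.7 in WT mice. Both genotypes spanned much the same range, and the difference was 0.14 (SE 0.12, interval -0.12 to 0.40). Its other tested probe sets gave -0.15 and 0.31. Grin2d, a subunit found in interneurons, differed by 0.30 (interval -0.20 to 0.80), with KO values from 66.9 to 93.2 and WT values from 36.8 to 86.9, so that the ranges overlapped in part. Grin2c and Grin3a differed by -0.08 and 0.10. Grin2a and Grin3b lay below the filter and were not tested. Grin2a, for GluN2A, read between 25 and 27.7 in KO mice and between 23.2 and 31.2 in WT mice, and a change in it could not be assessed at that brightness. Grin3b read between 26.3 and 27.1 in KO mice and between 6.3 and 27.3 in WT mice.

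Grid1, a delta receptor subunit that bridges synapses through cerebellin proteins, differed by 0.04 (interval -0.21 to 0.29). Its signals were 286.5, 278.8 and 249.7 in KO mice and 301.2, 230.5 and 264.3 in WT mice. The gene sits on chromosome 14 between genes that did change. In the GRCm38.p6 gene order 8 protein-coding genes separate it from Glud1, which was lower in KO, and 6 separate it from Cdhr1, which was higher. A second Grid1 probe set gave -0.18 and was not called either. Gria4 on chromosome 9 has Gucy1a2, higher in KO by 0.50 (adjusted p = 0.0482), 3 protein-coding genes away. Both neighbours were picked after their values were seen. For the other genes tested, the nearest called gene on the same chromosome, where there was one, was at least 8 protein-coding genes away.

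The 5 metabotropic receptors tested differed by 0.15 or less at their brightest probe sets. Grm5, the group I receptor through which glutamate raises calcium in medium spiny neurons, read 1776.4, 1679.5 and 1636.3 in KO mice and 1575.8, 1591.4 and 1761.5 in WT mice. The difference of 0.05 had an interval of -0.11 to 0.21, or a change of -7.36% to 15.3% in signal + 16 in KO. Grm3, a group II receptor also made by astrocytes, differed by 0.03 (interval -0.23 to 0.29). Its KO arrays lay close together at 903.9, 921.9 and 891.5, whereas its WT arrays were at 1095.4, 881.9 and 724.6. In group III, whose receptors sit largely on presynaptic terminals, Grm4, Grm7 and Grm8 differed by 0.03, 0.06 and 0.15, and KO and WT overlapped in each. Grm2, the other group II receptor, was below the filter, at 8.8 to 49.7 in KO mice and 8.5 to 25.2 in WT mice.

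The 4 MAGUK scaffolds were above 0, and Dlg4 had the smallest p of the scaffold genes. Dlg4 encodes PSD-95, the principal scaffold of excitatory synapses. Its signals were 648.8, 532.1 and 625.1 in KO mice and 532.3, 531.9 and 451.2 in WT mice. KO 2 fell between the WT mice, and the other KO mice were above all of them. The difference was 0.24 (SE 0.10, interval 0.03 to 0.46), with an unadjusted p of 0.0310 and an adjusted p of 0.464. Its other probe sets gave -0.03 and 0.06, and the mean over its 3 probe sets was 0.09 (adjusted p = 0.836).

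Dlg2 encodes PSD-93, a close relative of PSD-95. It read 1034.4, 981.3 and 975.1 in KO mice and 895.7, 944.9 and 919.2 in WT mice, with no overlap. The difference was 0.11 (SE 0.07, interval -0.04 to 0.27, adjusted p = 0.692), or 8.22% higher in signal + 16 in KO. Its other probe sets gave 0.10 and -0.08. Dlg1, for SAP97, had the smallest error of the 33 genes (SE 0.06). It gave 1672.6, 1701.3 and 1688.3 in KO mice and 1608.2, 1677.3 and 1632 in WT mice, a difference of 0.04 with an interval of -0.10 to 0.18. Dlg3, for SAP102, differed by 0.08.

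Dlgap1, a SAPAP protein, was the gene with most probe sets, and all 6 were above 0 over the 6 arrays. The brightest gave 0.02 (interval -0.34 to 0.38), with 367.2, 403.4 and 487.1 in KO mice and 417.2, 536.8 and 305.7 in WT mice. The others gave 0.24, 0.20, 0.58, 0.32 and 0.37. At the probe set with 0.58, signals were 75.3, 79.7 and 107.4 in KO mice and 66.5, 38.1 and 56.6 in WT mice. Those arrays do not overlap, and neither do those of the probe set with 0.37, yet the adjusted p was 0.350 and 0.639. Dlgap2 differed by 0.08 (interval -0.20 to 0.37).

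Shank3, the SHANK scaffold prominent in striatal neurons, differed by 0.03 (SE 0.09, interval -0.17 to 0.23). It read 1033.8, 933.6 and 819.2 in KO mice and 881.2, 958.7 and 873.7 in WT mice, so the KO mice spanned the WT range. Shank1 was below the filter, at 2.9 to 28.4 in KO mice and 16.9 to 27.4 in WT mice. Homer2 gave like values at all 3 of its probe sets, 0.28, 0.28 and 0.23. The one with 0.23 is the dimmest and passed the filter only through the KO arrays, so it adds little. At the brightest the Homer2 signals were 195.4, 203 and 264.6 in KO mice and 238.6, 127.3 and 182.8 in WT mice. WT 1 lay within the KO range, and the interval was -0.12 to 0.68 (adjusted p = 0.714). Homer3 differed by -0.05 and Grid2ip by 0.36 (adjusted p = 0.683), at signals of up to 57.5 and 47.1 on any array. Grid2ip read 47.1, 27.5 and 38.3 in KO mice and 29, 20.3 and 27 in WT mice. Its mean passed the filter only through the KO arrays, so its difference carries little weight.

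The 4 trafficking genes of AMPA receptors were below 0 at their brightest probe sets, but for Nsf and Cacng2 the sign depended on the setting. Nsf was at 0.01 after centring arrays on their medians, at 0.03 as the mean of its probe sets, at 0.02 without KO 1 and at 0.0033 without WT 1. Cacng2 was at 0.31 as the mean of its probe sets, a value that rests on the dimmest of them, described below. Nsf, the ATPase that disassembles SNARE complexes and binds GluA2, read 3212.3, 3335 and 3806.4 in KO mice and 3706.1, 3622.8 and 3255.2 in WT mice. The difference was -0.03 (SE 0.08, interval -0.21 to 0.14), and its other tested probe sets gave 0.03 and 0.08. Grip1, which holds GluA2 and GluA3 through PDZ domains, differed by -0.22 at the brightest probe set and -0.17 at the other. Its signals were 122.1, 120.5 and 92.7 in KO mice and 112.6, 134.5 and 152.2 in WT mice, with overlap (adjusted p = 0.718). Pick1, a PDZ protein that removes GluA2 from the membrane, differed by -0.17.

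Cacng2 encodes stargazin, an auxiliary subunit of AMPA receptors, and its probe sets disagreed most. The brightest gave -0.08 (interval -0.31 to 0.15) and the second 0.07. The dimmest gave 0.94 (SE 0.28), with 54.9, 59 and 68.1 in KO mice and 19.7, 49.2 and 11.1 in WT mice. Its unadjusted p was 0.00579 and its adjusted p 0.263, and WT 1 and WT 3 were below the filter signal of 26.8 there. The mean of this probe set passed the filter only through the KO arrays, so its difference carries little weight.

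**Figure D3:**
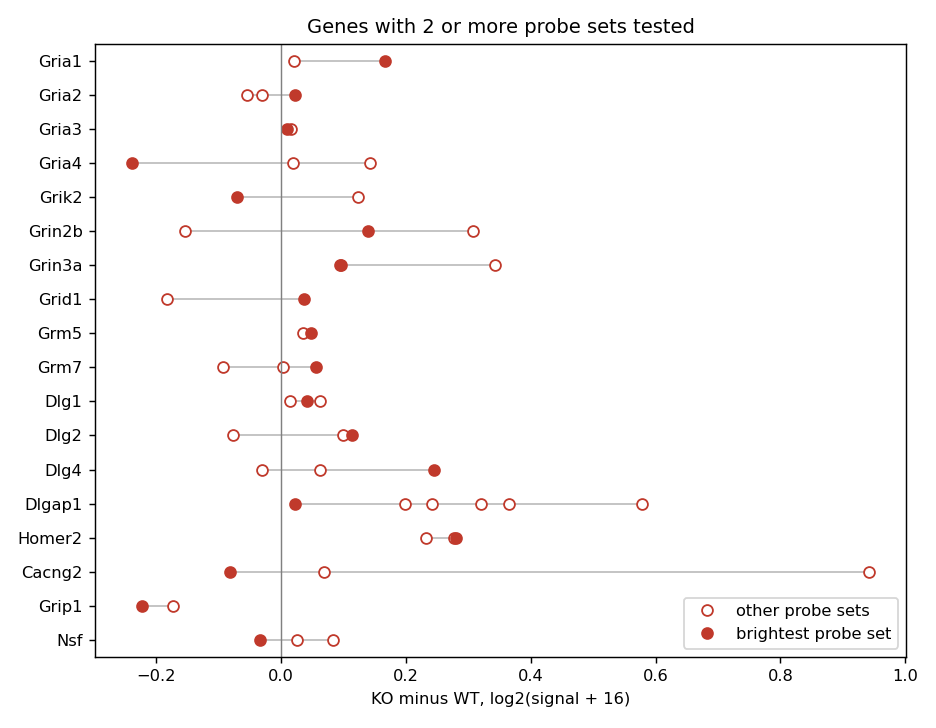
KO minus WT difference on the log2(signal + 16) scale at each tested probe set, for the 18 genes with 2 or more. The filled point is the brightest probe set and open points are the others. The lone value above 0.9 is the dimmest probe set of Cacng2, while Dlgap1 has all 6 of its points above 0.

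Different probe sets of 1 gene were often split in sign. Of the 18 genes with 2 or more tested, 8 had the same sign throughout and 10 did not. Gria1, Gria3, Grin3a, Grm5, Dlg1, Dlgap1 and Homer2 were above 0 at each, and Grip1 below 0 at each. The dimmest probe set of Homer2 was tested only through its KO arrays. After quantile normalization 1 probe set of Gria3 (-0.0036) and 1 of Dlg1 (-0.01) lay just below 0. Over all 66 tested probe sets of the 33 genes, 0 were called, where limma called 0.470% of all 27022 probe sets tested. An unadjusted p under 0.05 was reached at 4 of the 66, or 6.06% against 9.17% of all probe sets tested. Arrays did not overlap at 5 of the 66, 4 higher and 1 lower in KO, or 7.58% against 14.4% of all probe sets tested. Both counts include the dimmest probe set of Cacng2, which passed the filter only through the KO arrays.

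The intervals, and the size of observed difference that a call needed, describe the precision of these arrays. The 95% interval lay within -0.5 to 0.5 for 25 of the 33 genes, and within -1 to 1, a change of 2-fold in signal + 16, for all 33. A call also needs a p below about 0.00023, the largest unadjusted p among called probe sets. With its own error, a gene would have had to differ by 0.33 at Dlg1, by 0.61 at the median gene, Grin2b, and by 1.30 at Grik1. As a rise in signal + 16 these are 25.8%, 52.3% and 147%, and the rise in signal itself would be larger, most so at dim genes such as Grik1. Smaller observed differences at these errors were not called with 3 arrays per genotype. These sizes apply to observed differences, so a true change as large could also go uncalled.

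**Figure D4:**
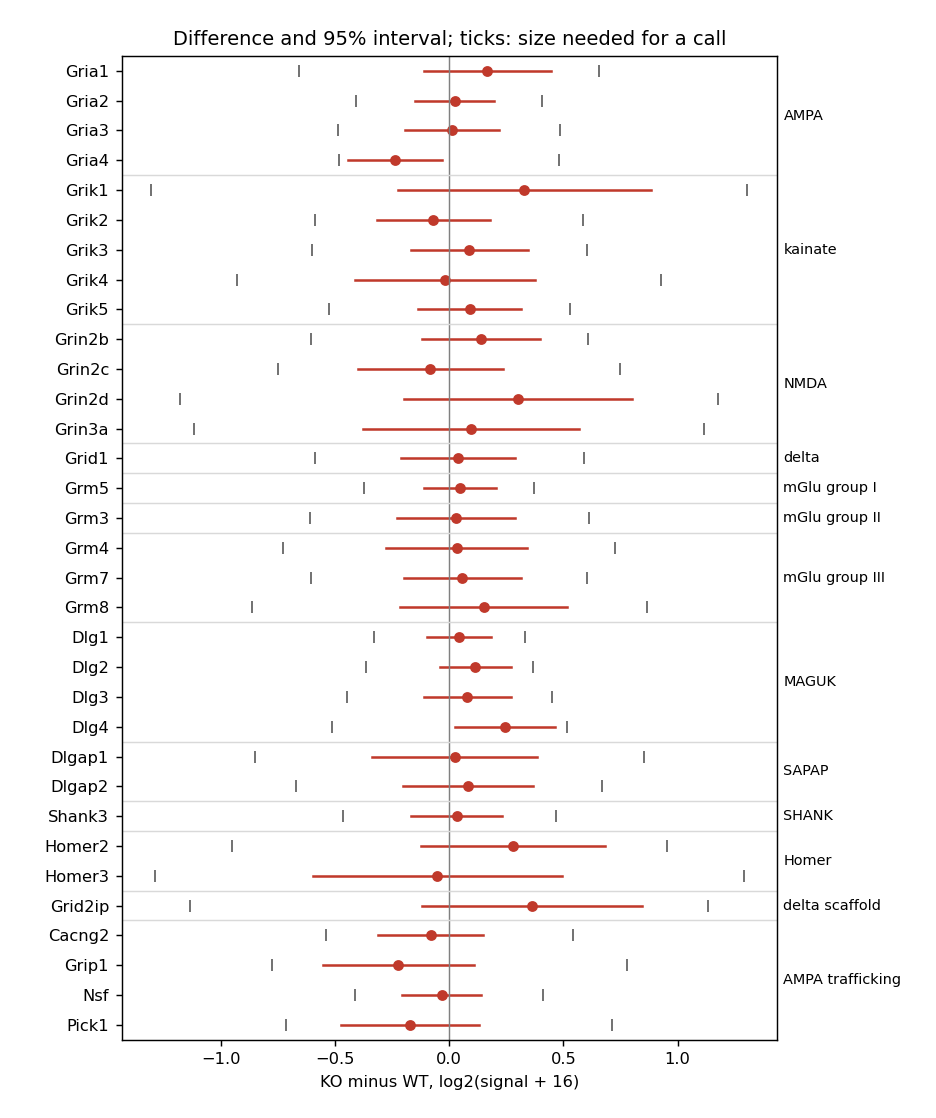
KO minus WT difference of the 33 genes on the log2(signal + 16) scale, with its 95% interval from limma as a line. Grey ticks mark the size at which that gene would have been called, given its own error. Every point and interval lies inside its ticks, and only the intervals of Gria4 and Dlg4 leave out 0.

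Genes around the receptors were described by 3 further lists, which hold 66 genes found on the array, 64 of them tested and 1 called. Over all named genes tested, limma called 0.446%. At that share, 0 calls in a list of this size say little about its genes. Auxiliary proteins of AMPA and kainate receptors had 0 of 19 called, 12 above 0 and 7 below, and a median of 0.02. Porcn and Cacng7 had the smallest p-values, at -0.23 and -0.29 (adjusted p = 0.562 and 0.717). Other postsynaptic density proteins had 0 of 30 called, 23 above 0 and 7 below, and a median of 0.07. Nlgn3, a neuroligin that binds presynaptic neurexins, read 129.9, 139.2 and 124.5 in KO mice and 147.1, 183.9 and 243.7 in WT mice. Those arrays do not overlap, but the difference of -0.47 had an adjusted p of 0.342. Lin7c, a small PDZ scaffold, read 628.6, 634.1 and 645.9 in KO mice and 540.8, 603.9 and 540.2 in WT mice. Those arrays do not overlap either, at a difference of 0.18 (adjusted p = 0.541). Full separation was seen at 6.67% of this list, against 15.1% of all named genes. Homer1, the Homer gene outside the list above, differed by 0.07.

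Glutamate transport and metabolism held the called gene, with 1 of 15 called, where 0.446% of all named genes were. In this list 6 were above 0 and 9 below, with a median of -0.03. Glud1, mitochondrial glutamate dehydrogenase, read 1133.5, 1092.1 and 1217.3 in KO mice and 1656.1, 1650.2 and 1828.7 in WT mice. It was lower in KO by -0.57 on the log2 scale (SE 0.08, adjusted p = 0.00447) and is the chromosome 14 neighbour of Grid1 named above. Slc38a3, a glutamine transporter, read 213, 220.4 and 226 in KO mice and 253, 281 and 266.5 in WT mice, without overlap. It differed by -0.26 (adjusted p = 0.415). Full separation was seen at 13.3% of this list, against 15.1% of all named genes. The astrocyte glutamate transporters Slc1a2 and Slc1a3 differed by 0.02 and 0.05. Slc17a6, the vesicular glutamate transporter of thalamic axons and neurons, gave 337.9, 312.1 and 267.1 in KO mice and 432.6, 78.4 and 177.5 in WT mice. The WT mice bracket the KO mice, and the difference was not called (0.67, adjusted p = 0.658).

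**Figure D5:**
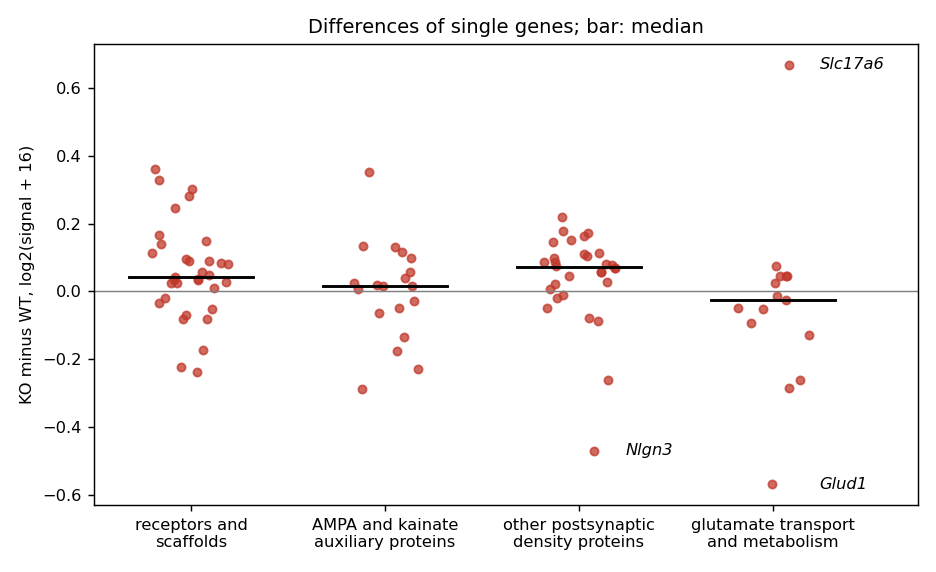
KO minus WT difference on the log2(signal + 16) scale for each gene tested, 1 point per gene, in the receptor and scaffold genes and in 3 further lists. Horizontal bars are medians. Glud1 at -0.57 is the called point, while Slc17a6 and Nlgn3 were not called.

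Markers of cell types were compared between the genotypes as a description of the tissue. Signals correlated at 0.975 to 0.983 between arrays. The 11 medium spiny neuron markers found, Drd1, Drd2, Ppp1r1b and Penk among them, were all tested. Of them 0 were called, where limma called 0.446% of all named genes tested. Arrays were fully separated for 1 of the 11, Gpr6, higher in KO by 0.30 (adjusted p = 0.240). That is 9.09% of the list, against 15.1% of all named genes. The summed signal of these 11 markers ran from 30999.7 to 34635.7 in KO mice and from 29406.7 to 34482.9 in WT mice. Markers of other cells overlapped between the genotypes in summed signal for cortical, thalamic, astrocyte, oligodendrocyte and microglial lists. A sum is led by its brightest markers. In each of these lists 0 markers were called (lowest adjusted p = 0.109). All 5 thalamic markers were above 0 (median 0.67), as was 1 of 6 oligodendrocyte markers (median -0.18). Among these markers of other cells, arrays were fully separated for Mag (-0.43), S100b (-0.37) and Fezf2 (-0.57), lower in KO, and for Cx3cr1 (0.15), higher. Per list this was 0% to 16.7%, against 15.1% of all named genes. The sum of the 4 choroid plexus markers ran from 2872.4 to 3910.3 in KO mice and from 1499.8 to 2441.5 in WT mice, and did not overlap. That separation came from Ttr (0.91, adjusted p = 0.0347). Without Ttr the sums were 250.6, 275 and 340.5 in KO mice and 235.4, 266.9 and 248.6 in WT mice, which overlap. Of these 3 other markers Clic6 was not called (adjusted p = 0.732), and Kl and Folr1 were below the filter. No marker on these lists was at 0 on all arrays. The thalamic sum was uneven in WT, from 626.3 to 2006.1, against 1315 to 1654.7 in KO mice. The part of either marker sum in the values of the receptor genes was not tested. KO 3 was the lowest KO array for 14 of the 33 genes and KO 1 the highest for 17.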

How the data were processed

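The authors deposited 1 intensity per probe set and array, on a linear scale. Per the submitters' processing notes it came from MAS5, with version and settings not given in the sources here. Array means trimmed of the lowest and highest signals ran from 149.4 to 149.9, so the arrays had been scaled and changes are relative to the other probe sets. Array medians were less alike, from 43.1 to 47.3. Of 45101 probe sets, 64 controls were left out. The platform annotation named 34945 with 1 gene, and symbols were updated through GRCm38.p6.

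Limma 3.58.1 (R 4.3.3, lmFit and eBayes with intensity trend) was applied to log2(signal + 16) of the 27022 probe sets above the 40th percentile of mean log2 signal. Benjamini-Hochberg adjustment ran over all of them, with a call at an adjusted p under 0.05. Intervals are limma's 95% intervals. The procedure was tested on simulated data. Genes named by rule are those called or not overlapping, and the brightest and smallest-p gene of each role. From further lists they are called genes and the 2 smallest p. Some of them are given by their difference without signals, and other genes are named beside them. The members and lists were chosen with earlier results of these data known. The replicates are separate mice, and 3 arrays per genotype limit precision. Alternatives were another normalization, offset, filter or variance model, a replicate block, averaging a gene's probe sets, and omitting single arrays. Replicate numbers did not pair the mice: deviations of same-numbered arrays correlated at -0.01, -0.03 and 0.02.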

Additional observations from a re-analysis of the deposited data

How the results depend on the processing

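Under each of the 16 alternatives run, 0 of the receptor and scaffold genes were called, and the lowest adjusted p was 0.377. The median difference of 0.04 moved to 0.0857 after centring the arrays on their medians. Those medians were taken over all non-control probe sets, dim ones included. The median difference over the probe sets above the filter shifted to 0.04 with it. With 1 array left out it ran from 0.0164 to 0.0872, and the count of called genes stayed at 0. With the replicate block 0 were called and the median was 0.04. The block changed no call. Of 522 values of single genes under an alternative, 36 changed sign, all of them uncalled, in 16 of the 33 genes. Gria4 ran from -0.29 to -0.03 and Dlg4 from 0.09 to 0.33, and for both the value nearest 0 came from the mean of the gene's probe sets. Without the intensity trend, and without KO 1, 0 genes had an unadjusted p under 0.05, against 2 in the reported fit. Dim probe sets, such as those of Grin2a, Grin3b, Grm2 and Shank1, allow no statement.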
